A study of Oryctolagus cuniculus with 4 samples.

Results

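The nuclear-encoded genes of the mitochondrial respiratory chain were described in intact semitendinosus tendons, from which poly(A) RNA had been sequenced. Each of the 4 tendons came from a different rabbit, a female of the New Zealand White breed 193 days old. The genes were chosen by symbol from the deposited transcript counts, as every gene whose symbol began with NDUF, with SDH and a letter from A to D, with UQCR, with ATP5, or with COX, a digit from 4 to 8 and a letter. This rule found 47 of 20294 genes. Of these, 35 encode subunits of complexes I to V, 10 encode assembly factors of complexes I and II, and 2, NDUFA4L2 and ATP5S, are related genes that are not counted as subunits here. The animals carried no treatment or genetic change in the labels, and the 4 tendons formed 1 group. Surface muscle had been scraped off with a blade before the tendons were frozen. Each animal gave 1 tendon, so a difference between tendons cannot be told apart from one between animals, dissections or libraries.

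The respiratory chain carries electrons from NADH and succinate to oxygen in the inner mitochondrial membrane. Complex I (NADH dehydrogenase) and complex II (succinate dehydrogenase) feed electrons to ubiquinone, complex III (cytochrome bc1) passes them to cytochrome c, complex IV (cytochrome c oxidase, COX) reduces oxygen, and complex V (ATP synthase) uses the resulting proton gradient to make ATP. Complexes I, III, IV and V combine subunits of the nuclear genome with a few encoded in mitochondrial DNA, and complex II is wholly nuclear. Some COX subunits exist as a muscle-type and a ubiquitous isoform. Tendon is a tissue of few cells in much matrix and its fibroblasts are considered less oxidative than muscle fibres, which are rich in mitochondria.

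Total estimated counts were between 19759696 and 30646052 per tendon. Levels below are TPM, transcript abundances that are corrected for transcript length and scaled to a fixed total, which allows genes to be compared. Differences between tendons are given on CPM, counts relative to the total of a library with no correction for length, normalised by the TMM method of edgeR. Tenocyte and muscle markers were both present. TNMD, which encodes tenomodulin, a membrane protein of tenocytes, was at 158, 169, 31.7 and 187 TPM in tendons 1 to 4, and ACTA1, skeletal muscle actin, at 2925, 13182, 6218 and 7864 TPM. The samples were bulk tissue, in which fewer cells of a type and less RNA per cell cannot be told apart.

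All 47 genes had a mean of at least 1 TPM, and 25 of them, all subunits, had a mean of at least 100 TPM. The 35 subunits together took 0.551, 0.757, 0.637 and 0.746% of all TPM, in the order of tendons 1 to 4, and 0.673% ± 0.0976 on average (SD, n = 4). Tendon 1 had the lowest share, and tendons 2 and 4 lay close together at the top. The mean level of a subunit ranged from 2.32 TPM for COX4I2 to 592 TPM for COX4I1. Of the 35 subunits, 30 stood above the 90th percentile of mean TPM over all genes, a mark that 10% of all genes pass by its definition. Share and rank depend on the length correction, since the subunit transcripts had a median of 692 bases against 1569 bases over all transcripts. Before that correction the 35 subunits took 0.308% of counts on average, and their ranks on that scale are not given here. The symbols covered part of the chain. A row was found for 18 of 37 listed nuclear subunits of complex I, 1 of 4 of complex II, 3 of 8 of complex III, 7 of 17 of complex IV with its tissue isoforms, and 6 of 15 of complex V. The other symbols were not analysed here, so sums per complex are not complete. Mammalian genomes hold processed copies of many of these genes, and 12 of the 47 lay on unplaced scaffolds. Reads shared with an unnamed copy could be split between rows, which makes single levels uncertain.

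**Figure D1:**
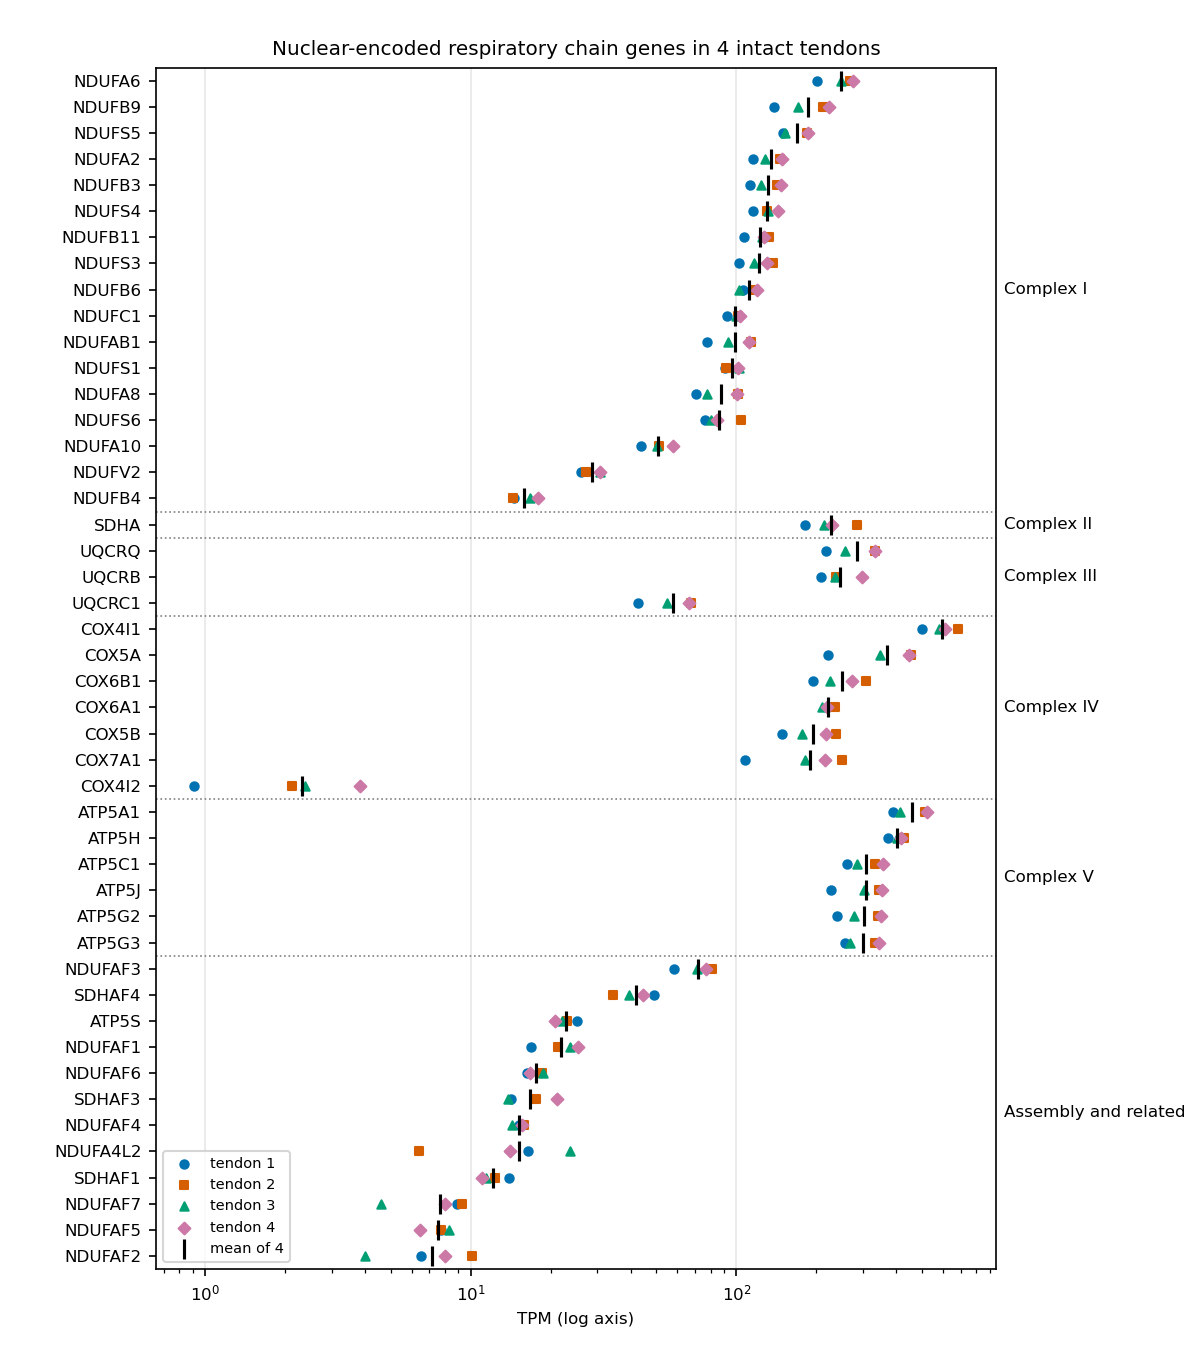
TPM (log axis) of 46 of the 47 genes in tendons 1 to 4 (coloured points), with the mean of 4 tendons as a bar, grouped by complex. COX4I1 lay between 498 and 681 TPM, and its isoform COX4I2 between 0.912 and 3.84 TPM.

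Compared by their median subunit, the complexes were ordered with ATP synthase at the top and complex I at the bottom in all 4 tendons. The median complex V subunit was at 258, 342, 293 and 354 TPM in tendons 1 to 4, and the average was 312 ± 44.7 TPM (SD, n = 4, 6 subunits). Complex I stood at 97.1, 116, 102 and 116 TPM, a mean of 108 ± 9.60 TPM over 18 subunits. Between them lay complex III at 245 ± 37.3 TPM (3 subunits), complex II, with its 1 subunit, at 227 ± 43.4 TPM and complex IV at 218 ± 24.03 TPM (7 subunits). These middle 3 changed order between tendons and differed by less than the SD of complex III. The place of complex V depended on the length correction. With 150 bases taken off each transcript as an approximate effective length, complex IV was at 238, 375, 272 and 328 TPM and complex V at 258, 363, 305 and 369 TPM, so that complex IV stood higher in tendon 2. Complex III then also stood just above complex V in tendon 4, at 370.3 against 369 TPM. Without length correction, SDHA alone, at 194 CPM, stood above the complex V median of 123 CPM. Complex I was lowest on all 3 scales.

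In complex I, the accessory subunits NDUFA6 and NDUFB9 had the highest levels in TPM. NDUFA6 (ENSOCUG00000015446.2, scaffold GL018734, 508853 to 515180) was at 202, 268, 247 and 275 TPM in tendons 1 to 4, with tendon 1 below the other 3. NDUFB9 (ENSOCUG00000025074.1, chromosome 3, 140273563 to 140279290) was at 138, 211, 171 and 222 TPM, again with tendon 1 lowest. Among the core subunits, which carry the electron path from NADH to ubiquinone, NDUFS3 was at 121 ± 15.5 TPM and NDUFS1, the large iron-sulphur subunit, at 96.4 ± 6.13 TPM. NDUFV2, an iron-sulphur subunit of the NADH-oxidising part, was lower at 28.6 ± 2.49 TPM. The median of the 14 accessory subunits was at 106, 124, 113 and 123 TPM in tendons 1 to 4, a mean of 117 ± 8.55 TPM. That of the 4 core subunits averaged 99.3 ± 7.72 TPM. Before length correction the order reversed, at 44.9 CPM for accessory and 85.4 CPM for core subunits. NDUFS1 then had a mean of 119 CPM, above NDUFB9 at 66.6 CPM and NDUFA6 at 62.3 CPM.

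Among the accessory subunits, NDUFS5 reached 168 ± 19.5 TPM, NDUFA2 135 ± 15.6 TPM, NDUFB3 131 ± 16.1 TPM and NDUFS4, which is needed to complete the NADH-oxidising arm, 130.3 ± 11.8 TPM. The X-linked NDUFB11, of the membrane arm, stood at 123 ± 11.1 TPM. NDUFB6 was at 112 ± 8.59 TPM, NDUFC1 at 99.1 ± 4.75 TPM and NDUFAB1, the mitochondrial acyl carrier protein, at 98.8 ± 16.7 TPM. NDUFA8 had 87.5 ± 15.7 TPM, NDUFS6 86.3 ± 12.4 TPM and NDUFA10 50.8 ± 5.73 TPM. The lowest complex I subunit was NDUFB4 (ENSOCUG00000029140.1, chromosome 14, 98260789 to 98269723), at 14.5, 14.5, 16.7 and 17.9 TPM in tendons 1 to 4. Its only row had a transcript of 4352 bases, and that of NDUFV2 had 5020 bases, against a median of 692 bases over the 35 subunits. Before length correction, NDUFB4 was still below the complex I median in every tendon, at 33.1, 37.5, 39.4 and 40.96 TMM-normalised CPM, and NDUFV2 was not low. NDUFV2 had 68.04, 80.9, 83.6 and 81.1 TMM-normalised CPM in tendons 1 to 4, above the 48.3, 73.03, 61.2 and 66.4 CPM of NDUFA6 in all 4. Across the 35 subunits, Spearman's rho of transcript length with mean TPM was -0.513, and with mean TMM-normalised CPM 0.318. These values run across genes, which are not independent replicates, and TPM holds the length in its own definition.

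Complex II was seen through SDHA, the flavoprotein that oxidises succinate and also serves the citrate cycle. SDHA (ENSOCUG00000023573.2, scaffold GL018897, 351325 to 371174) was at 181, 285, 213 and 229.8 TPM in tendons 1 to 4. Tendon 2 was highest and tendon 1 lowest.

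The 3 complex III genes were UQCRQ and UQCRB, both small accessory subunits, and UQCRC1, a core protein on the matrix side of the complex. UQCRQ (ENSOCUG00000013627.2, chromosome 3, 15890473 to 15891398) was at 217, 332, 256 and 331 TPM in tendons 1 to 4, with tendons 2 and 4 level with each other. UQCRB (ENSOCUG00000008113.3, chromosome 3, 111985195 to 111989428) was at 209, 238, 236 and 297 TPM, highest in tendon 4. UQCRC1 (ENSOCUG00000002041.3, chromosome 9, 16296032 to 16308025) was lowest in TPM, at 42.7, 67.7, 54.8 and 66.4 TPM. Its transcript was 3425 bases long. Before length correction it was the highest of the 3 in every tendon, and UQCRC1 had 76.4, 138, 102 and 119.6 TMM-normalised CPM, UQCRQ 56.2, 97.99, 68.8 and 86.4 CPM and UQCRB 41.4, 53.6, 48.3 and 59.3 CPM.

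Complex IV held the gene with the highest TPM of the 47, COX4I1, the ubiquitous form of subunit 4. COX4I1 (ENSOCUG00000001735.2, scaffold GL019024, 93618 to 97740) was at 498, 681, 578 and 611 TPM in tendons 1 to 4, with the lowest value in tendon 1 and the highest in tendon 2. Its isoform COX4I2, best known from lung and from cells low in oxygen, was at 0.912, 2.13, 2.38 and 3.84 TPM (ENSOCUG00000025424.2, chromosome 4, 7576571 to 7584630). COX4I2 was thus 0.00183, 0.00313, 0.00412 and 0.00629 times COX4I1, with a mean log2 ratio of -8.16 ± 0.75 (SD, n = 4). Every tendon lay on the same side. In the exact two-sided sign-flip permutation test, 2 of 16 sign patterns gave a mean as far from 0. This is the smallest share that 4 tendons allow, so the test cannot pass 0.05, and with 1 pair tested adjustment changes nothing. Only 12 estimated counts stood behind COX4I2 in tendon 1, where all other subunits had at least 285 in every tendon.

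Muscle-type and ubiquitous isoforms could be set side by side only across different subunits. COX7A1 is the heart and skeletal muscle form of subunit 7A, while COX6A1 and COX6B1 are the widely expressed forms of subunits 6A and 6B. Their partner isoforms COX7A2, COX6A2 and COX6B2, and the subunit 8 genes COX8A and COX8B, were not analysed here, so no ratio within these pairs was computed. COX7A1 (ENSOCUG00000013103.2, scaffold GL018786, 882135 to 882875) was at 108, 250.4, 181 and 215 TPM in tendons 1 to 4. Tendon 1 was lowest and tendon 2 highest. COX6A1 (ENSOCUG00000009873.2, chromosome 21, 12132327 to 12134925) was at 221, 234, 209 and 219 TPM, and its 4 tendons lay close together. COX6B1 (ENSOCUG00000009606.2, scaffold GL018786, 497701 to 506657), on the same scaffold as COX7A1, was at 193, 308, 225 and 271 TPM. On TMM-normalised CPM, the highest tendon exceeded the lowest 2.64-fold for COX7A1, 1.81-fold for COX6B1, 1.56-fold for COX4I1 and 1.23-fold for COX6A1.

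As a ratio within each tendon, COX7A1 TPM was 0.488, 1.07, 0.868 and 0.980 times COX6A1 and 0.217, 0.368, 0.314 and 0.352 times COX4I1 in tendons 1 to 4. Tendon 1 had the lowest of both ratios. This comparison was added with the values in view and was not tested. The size of the ratio depended on the short COX7A1 transcript of 264 bases. COX7A1 was 0.812, 1.78, 1.44 and 1.63 times COX6A1 with the approximate effective length, and 0.241, 0.529, 0.429 and 0.484 times in CPM, so which of the 2 genes was more abundant cannot be read from these values.

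The last pair of complex IV subunits, COX5A and COX5B, have no muscle isoform. COX5A (ENSOCUG00000003258.3, scaffold GL018768, 1065940 to 1267483) was at 222, 455, 348 and 446 TPM in tendons 1 to 4, a spread of 2.34-fold on TMM-normalised CPM, second to COX7A1 among the 38 genes that reached 10 CPM on average. COX5B (ENSOCUG00000017085.3, chromosome 2, 94479836 to 94481964) was at 149, 236, 176 and 217 TPM, a 1.81-fold spread. A wide spread was thus found in a subunit without isoforms as well as in the muscle-type COX7A1.

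**Figure D2:**
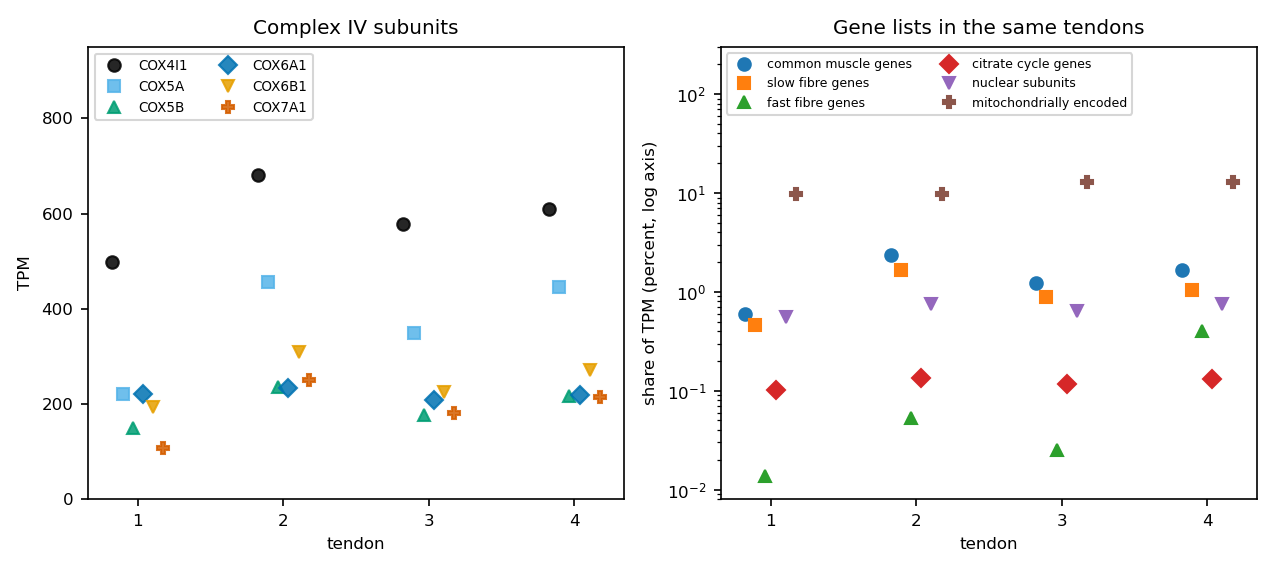
Left, TPM of 6 complex IV subunits in tendons 1 to 4; right, share of TPM (percent, log axis) of gene lists in the same tendons; points are shifted sideways to stay visible. COX6A1 lay between 209 and 234 TPM and COX7A1 between 108 and 250.4 TPM.

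In complex V, ATP5A1, the alpha subunit of the catalytic F1 head, had the highest level. ATP5A1 (ENSOCUG00000003967.3, chromosome 9, 87502125 to 87513233) was at 387, 514, 414 and 521 TPM in tendons 1 to 4, with tendons 2 and 4 above tendons 1 and 3. ATP5H (ENSOCUG00000015537.2, scaffold GL018845, 655124 to 658960), the d subunit of the peripheral stalk, was at 371, 425, 400.5 and 416 TPM and varied less. ATP5C1, the rotating central gamma subunit, had 2 transcripts and a sum of 308 ± 43.8 TPM, of which the shorter held 282 TPM. ATP5J, another peripheral stalk gene, stood at 306 ± 56.6 TPM. The 2 genes of the membrane c-ring that the rule found had nearly the same level in every tendon. ATP5G2 was at 239, 342, 277 and 349 TPM and ATP5G3 (ENSOCUG00000012164.3, chromosome 7, 114819414 to 114826542), the lowest of the complex by its mean, at 255, 332, 267 and 343 TPM. All 6 means lay between 299 and 459 TPM, a narrower range than the 15.9 to 248 TPM of the 18 complex I subunits. Before length correction complex V had the wider range. Its means then ran from 85.6 CPM for ATP5J to 479 CPM for ATP5A1, and those of complex I from 31.9 CPM for NDUFS6 to 119 CPM for NDUFS1.

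Assembly factors, which help build the complexes and are not part of the finished enzymes, were at lower levels. The median of the 7 complex I assembly factors was 15.3, 15.8, 14.3 and 15.6 TPM in tendons 1 to 4, below the complex I subunit median in all 4, as also in CPM (9.81, 11.4, 7.26 and 9.84 against 40.4, 57.1, 50.5 and 56.3 CPM). NDUFAF3 was highest at 71.9 ± 10.004 TPM (SD, n = 4), followed by NDUFAF1 at 21.8 ± 3.62 TPM, NDUFAF6 at 17.6 ± 1.20 TPM and NDUFAF4 at 15.2 ± 0.690 TPM. NDUFAF7, a methyltransferase, had 7.70 ± 2.13 TPM, NDUFAF5 7.55 ± 0.796 TPM and NDUFAF2 7.16 ± 2.59 TPM. Of the succinate dehydrogenase factors, SDHAF4 was at 41.8 ± 6.32 TPM, SDHAF3 at 16.7 ± 3.43 TPM and SDHAF1 at 12.2 ± 1.26 TPM. The SDHAF4 transcript was 258 bases long, and before length correction SDHAF3 was higher, at a mean of 9.89 against 5.86 CPM. Among 27 further assembly factors listed by name, 17 had a row, all with a mean of at least 1 TPM and with a median of 18.3 TPM. The copper chaperone gene COX17 was an exception in TPM, at 147, 215, 170.0 and 266 TPM in tendons 1 to 4. Its transcript was 189 bases long, so this level depends strongly on the length correction.

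The 2 related genes departed from the pattern of the subunits in their lowest tendon. NDUFA4L2, a paralogue of NDUFA4 known to be induced by low oxygen, was at 16.4, 6.41, 23.7 and 14.1 TPM in tendons 1 to 4, lowest in tendon 2, where most subunits were high. Its mean was under 10 CPM, with 70.3 estimated counts in tendon 2. ATP5S, a coupling factor related to ATP synthase, was at 25.2, 23.01, 22.1 and 20.8 TPM, with tendon 4 lowest. On TMM-normalised CPM it had 45.8, 47.5, 41.6 and 38.1 CPM. Tendon 4 was again lowest, but tendon 2 was highest, as for most subunits. Assembly factors NDUFAF2, NDUFAF4, NDUFAF5, NDUFAF7, SDHAF1 and SDHAF4, all under 10 CPM on average, were also not lowest in tendon 1 on that scale. SDHAF3, also under 10 CPM, and the 3 assembly factors with at least 10 CPM were lowest there.

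Most transcripts of mitochondrial DNA were far more abundant than nuclear ones for the same complexes. The exception was ND4L of complex I, at 3218, 6.36, 5.55 and 4328 TPM in tendons 1 to 4, which lay below the nuclear complex I median in tendons 2 and 3. In complex I, the median of the 7 mitochondrially encoded genes was 2822, 2938, 4034 and 3922 TPM in tendons 1 to 4, and the nuclear median 0.0344, 0.0395, 0.0253 and 0.0295 times that. The nuclear median of complex III was 0.0366, 0.0369, 0.0291 and 0.0373 times CYTB (cytochrome b), the complex's 1 mitochondrial gene. For complex IV the ratios to COX1, COX2 and COX3 were 0.0131, 0.0170, 0.0112 and 0.0117, and for complex V the ratios to ATP6 and ATP8, which overlap in mitochondrial DNA, were 0.0240, 0.0359, 0.0211 and 0.0292. Mean log2 ratios were -4.98 ± 0.28, -4.85 ± 0.17, -6.26 ± 0.27 and -5.21 ± 0.34 (SD, n = 4) for complexes I, III, IV and V. In the exact two-sided sign-flip permutation test, each again reached the smallest share that 4 tendons allow, 2 of 16 sign patterns, and adjustment over the 4 complexes left it there. The size of these ratios and the order of the complexes depended on the length correction. Without it, the mean log2 ratios of complexes I, III, IV and V were -5.16, -5.84, -6.69 and -4.63. With the approximate effective length they were -4.87, -4.40, -5.81 and -6.02.

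The nuclear and mitochondrial genes did not share their order of tendons. Mitochondrially encoded genes took 9.82, 9.83, 13.02 and 12.9% of TPM in tendons 1 to 4, with tendons 3 and 4 above tendons 1 and 2. Summed TPM of nuclear subunits came to 5.61, 7.70, 4.89 and 5.80% of the mitochondrial sum, highest in tendon 2 and lowest in tendon 3. Poly(A) selection acts differently on mitochondrial and nuclear transcripts, so the absolute ratio is one of library content.

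**Figure D3:**
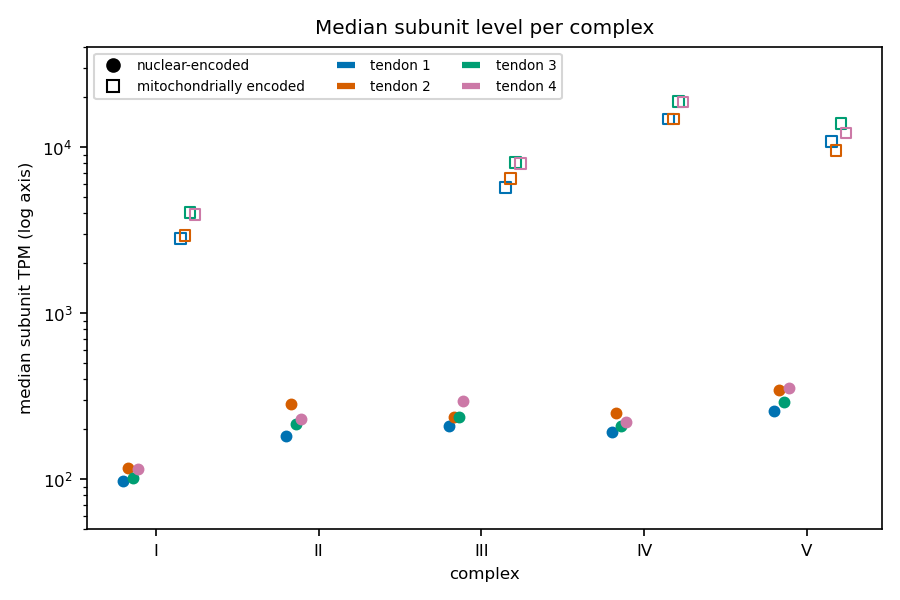
Median subunit TPM (log axis) per complex in tendons 1 to 4 (colours), for nuclear-encoded (filled circles) and mitochondrially encoded (open squares) genes; complex II has no mitochondrial gene. The median of mitochondrial complex IV genes lay between 14720.1 and 18744 TPM and that of nuclear ones between 193 and 250.4 TPM.

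Between tendons, most subunits varied less than 2-fold but in the same direction, and their typical range was wider than that of all genes. Of the 47 genes, 38 had a mean of at least 10 TMM-normalised CPM, 34 of them subunits. The 34 were all subunits but COX4I2. Tendon 1 was lowest for 32 of these 34 subunits, against 30.1% of the 8784 genes at that level. The other 2, COX6A1 and NDUFB6, were lowest in tendon 3. Among tendons 2 to 4 alone, tendon 3 was lowest for 30 of 34 subunits, against 32.4% of all genes. The full sequence, tendon 1 lowest and tendon 3 next, was seen in 28 of 34 subunits, against 15.2% of all genes. Subunits share 4 libraries and are not replicates of each other, and no test was made of these counts.

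Tendon 2 was highest for 29 of 34 subunits, against 31.5% of all genes. Tendon 4 was highest for 3, against 18.7% of all genes, and tendon 3 for 2, NDUFS1 and NDUFV2, against 15.7%. This depended on the scaling. In TPM, tendons 2 and 4 were each highest for 16 subunits, and with library totals tendon 2 was highest for 15 and tendon 4 for 17. Shares of all genes highest in tendon 2 or 4 on these other scales are not given here, so these counts have no background. The count of subunits lowest in tendon 1 was 31 in TPM, against 22.01% of all genes, and 34 with library totals, against 36.9%. Relative to TMM, TPM moved the median of all genes by -0.12 in tendon 2 on the log2 scale. Median deviations of the 34 subunits from their own means were -0.30, 0.28, -0.07 and 0.11 in tendons 1 to 4 on log2(TMM CPM + 1), against 0.02, 0.02, -0.004 and -0.03 for all genes.

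**Figure D4:**
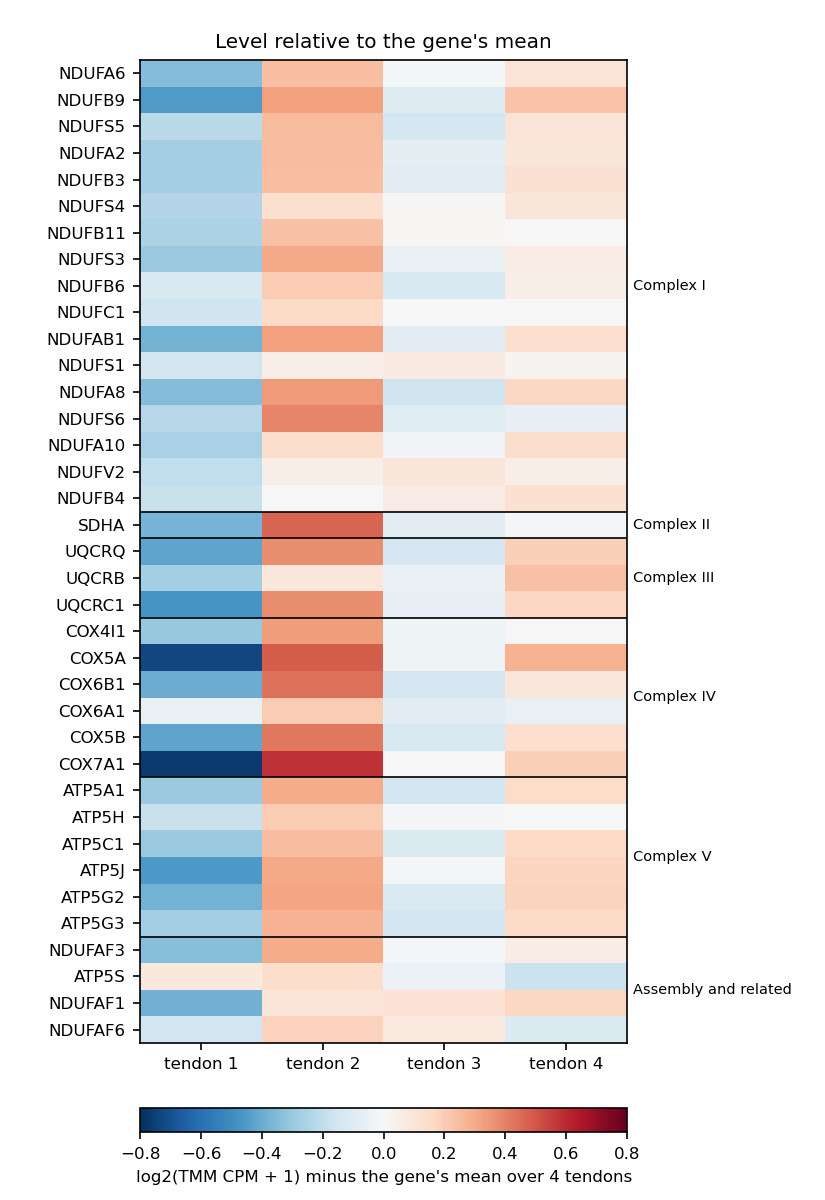
Level of 37 of the 38 genes that reached 10 CPM on average in tendons 1 to 4, as log2(TMM CPM + 1) minus each gene's mean, grouped by complex. In the column of tendon 1, 34 of these 37 genes are at their lowest, against 30.1% of all genes at that level, and COX7A1 and COX5A are the darkest there. In that column 36 are below their mean (blue), a count for which the share of all genes is not given here.

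The ratio of the highest to the lowest tendon had a median of 1.51 over the 34 subunits and 1.33 over all 8784 genes. A ratio of at least 1.5 was found for 18 of 34 subunits, against 28.9% of all genes, and of at least 2 for 2 of 34, COX7A1 and COX5A, against 10.2%. Without tendon 1, 0 of the subunits reached 2, and the share of all genes in that setting is not given here. By complex, the median ratio was 1.42 in complex I, 1.49 in complex V, 1.74 in complex III, 1.79 for SDHA and 1.81 in complex IV. After COX7A1 and COX5A, the largest SDs of log2 expression were those of UQCRC1, COX5B and COX6B1. UQCRC1 had a 1.80-fold range. The 3 smallest SDs belonged to complex I. NDUFS1 was at 107, 123, 125 and 120.3 TMM-normalised CPM in tendons 1 to 4, a 1.17-fold range. NDUFC1 had 29.7, 37.1, 33.3 and 33.4 CPM and NDUFB4 33.1, 37.5, 39.4 and 40.96 CPM.

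**Figure D5:**
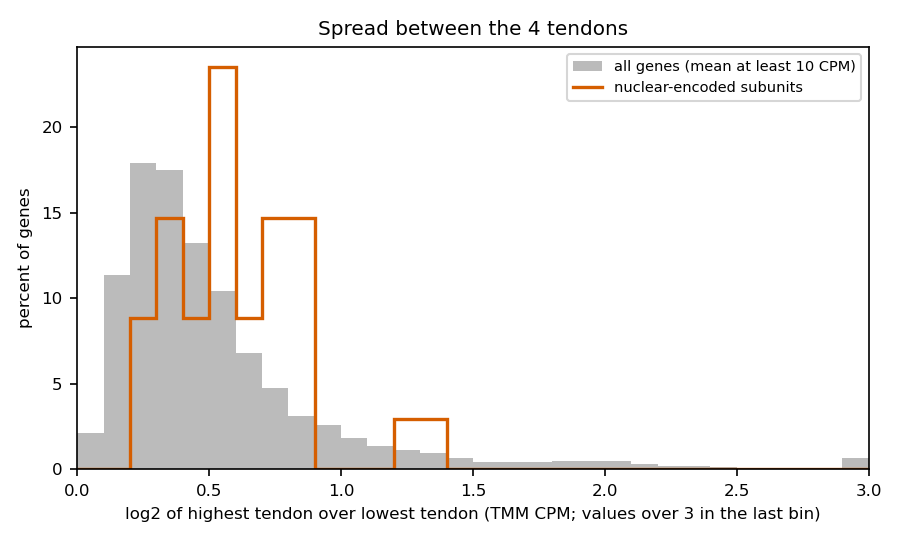
Percent of genes by the log2 ratio of the highest to the lowest tendon, for all 8784 genes that reached 10 CPM on average (grey) and for the 34 nuclear-encoded subunits among them (line). The median ratio was 1.51 for subunits and 1.33 for all genes, before the log.

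Skeletal muscle genes followed a similar order of tendons with a wider range. Of 31 listed markers of common, slow and fast fibre genes, 26 had a row, none was at 0, and their summed share of TPM was 1.08, 4.11, 2.14 and 3.09% in tendons 1 to 4. Tendon 1 was lowest for 24 of the 26, and all 26 had a ratio of highest to lowest tendon of at least 2, with a median of 4.55. Slow fibre genes took 0.461, 1.67, 0.897 and 1.04%, with tendon 2 highest for 6 of 6. Fast fibre genes took 0.0137, 0.0532, 0.0249 and 0.401%, with tendon 4 highest for 8 of 9. MB, myoglobin, the oxygen store of oxidative fibres, was at 1043, 2975, 2094 and 2272 TPM.

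Markers of other cells also differed between the tendons. Tendon 1 was also lowest for 6 of 6 endothelial genes and for 3 of 3 adipocyte genes with at least 10 CPM. Endothelial genes took 0.0160, 0.0202, 0.0277 and 0.0277% of TPM and adipocyte genes 0.0249, 0.0404, 0.0548 and 0.104%, the latter highest in tendon 4. UCP1, which defines brown adipocytes, another mitochondria-rich cell, was at most 0.152 TPM. CIDEA, the other listed brown adipocyte gene, which is also found in other lipid-storing cells, was at 3.93, 5.05, 14.3 and 28.5 TPM in tendons 1 to 4, lowest in tendon 1 and highest in tendon 4. Macrophage genes took 0.00852, 0.00677, 0.0164 and 0.0204%, and tendon 1 was lowest for 2 of 6. The 7 tenocyte and tendon matrix genes took 6.56, 4.94, 3.23 and 2.89%, with tendon 1 lowest for 0 and highest for 4 of them. The part of muscle or other cells in the levels of the subunits was not tested.

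Other mitochondrial genes were set beside the subunits. Of 12 citrate cycle genes with a row, 11 were lowest in tendon 1 and 11 highest in tendon 2 on TMM-normalised CPM, and their median ratio of highest to lowest was 1.51. MDH2, mitochondrial malate dehydrogenase, had the widest range of them on that scale and was at 129, 235, 178 and 204 TPM in tendons 1 to 4. CS, citrate synthase, which is widely used as a measure of mitochondrial content, was at 141, 189, 162 and 165 TPM. Of 13 mitochondrially encoded genes, 11 were lowest in tendon 1, but 9 were highest in tendon 3. Of the 13 further assembly factors with at least 10 CPM, 9 were lowest in tendon 1, as were 2 of 5 electron carrier genes. ETFA, part of the flavoprotein that takes electrons from fatty acid oxidation, was at 33.8, 53.3, 41.2 and 60.6 TPM. ETFDH, which hands them to ubiquinone, was at 50.8, 71.8, 63.6 and 78.3 TPM. ETFB, the partner of ETFA, was at 50.9, 59.6, 53.8 and 50.3 TPM. DHODH and GPD2, a pyrimidine synthesis and a glycerol phosphate dehydrogenase that also reduce ubiquinone, had their highest TPM in tendon 1 and their lowest in tendon 2, at 11.5, 5.94, 9.70 and 9.39 TPM for DHODH and 12.04, 8.41, 9.78 and 10.01 TPM for GPD2.

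Regulators of mitochondrial gene expression were below most subunits. Of 8 listed, 5 had a row, with a median of 14.5 TPM. PPARGC1A, the coactivator PGC-1alpha, was at 5.09, 4.06, 3.10 and 3.31 TPM in tendons 1 to 4, highest in tendon 1. NRF1, a transcription factor of many respiratory chain genes, was at 17.1, 13.7, 13.2 and 13.9 TPM. GABPA, the DNA-binding part of the other nuclear respiratory factor, was at 46.8, 39.7, 46.4 and 40.8 TPM and TFAM, which packages and transcribes mitochondrial DNA, at 17.6, 15.2, 18.9 and 19.3 TPM. Tendon 1 was lowest for 0 of the 3 regulators with at least 10 CPM.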

How the data were processed

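The authors deposited an estimated count for each transcript in each tendon, with no scaling by depth or length. Per the submitters' processing notes, bcl2fastq, FastQC, kallisto 0.42.4 and the build OryCun2.0 were used, without the role of each; coordinates are those deposited with the counts. Filters and strand handling are not given in the sources used here. The annotated transcript lengths, another quantity of the deposited table, gave TPM, summed per gene. Gene sums, rounded to whole counts, were scaled with the TMM method of edgeR 4.0.16 under R 4.3.3, with factors from 12740 genes of at least 1 CPM in at least 2 tendons. DESeq2 1.42.0 size factors were an alternative. Python 3.11.15, pandas 2.3.3 and scipy 1.17.1 did the rest. In each tendon 3 counts equalled 0.0979 to 0.152 CPM, for counting error only. The sign-flip test takes the 4 tendons as its units. Where all 4 log2 ratios lie on the same side of 0, it gives 2 of 16 sign patterns whatever their spread.

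Per-tendon values were given for isoforms of COX4, COX6A, COX6B, COX7A, COX7B and COX8, the 2 highest and the lowest subunit of each complex, and members with the 5 largest and 3 smallest SDs of log2(TMM CPM + 1) among those of at least 10 CPM. Other genes were chosen for context after their values were seen. The values of 1 gene, which enters the counts and medians, are not reported here. The members and lists were chosen with earlier results of these data known. Alternatives were other units, lengths, scalings, filters and tendons left out.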

Additional observations from a re-analysis of the deposited data

Results flagged for a closer look

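Of 62 values to which Dixon's ratio was applied, to find 1 tendon standing apart, 1 was above the 95% critical value for 4 samples, where chance gives about 3.10. It was the log2 ratio of the nuclear complex III median to CYTB, which was lowest in tendon 3 (Dixon's ratio 0.919). The log2 ratios were -4.77, -4.76, -5.10 and -4.75 in tendons 1 to 4. The median is that of UQCRB in all 4 tendons, and CYTB was at 5714, 6445, 8094 and 7971 TPM. A difference between animals was not tested. None of the 47 genes was above it in TPM.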

How the results depend on the processing

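Of 109 alternative values, 96 stayed within the SD of the tendons, on the same side of the test or within 1.5 times the count. The other 13 moved, and none reversed. For the log2 ratios the side of the test was fixed in advance, since the sign-flip test cannot pass with 4 tendons or fewer. Their place among the 96 is thus no sign of stability. Without length correction, the nuclear to mitochondrial log2 ratios of complexes III, IV and V moved beyond their SDs. That of complex III went from -4.85 ± 0.17 to -5.84. The ratio of complex I stayed within its SD, at -5.16 against -4.98 ± 0.28. Without length correction the share of the 35 subunits was 0.308% of counts, and the medians of complexes I, III, IV and V were 51.1, 77.4, 61.7 and 123 CPM, a different unit. With the approximate effective length, complexes III and IV had 304 and 303 TPM. With mitochondrially encoded genes left out of the total, complexes I and IV had 122 and 246 TPM. These shifts follow from the change of denominator or length. Of 38 genes of the symbol rule, 2 had a ratio of highest to lowest tendon of at least 2, against 10.2% of all genes. The count was 6 with a minimum of 1 CPM and 6 without a minimum, since 47 genes then entered. It was 0 at 4-fold. Leaving out 1 tendon at a time, the 2-fold count ranged from 0 (without tendon 1) to 2. Shares of all genes under these other filters, folds and tendon sets are not given here, so those counts have no background. The share ranged from 0.645 to 0.713% when each tendon was left out. The count lowest in tendon 1 was 35 of 38, against 30.1% of all genes. It was 34 in TPM, against 22.01% of all genes, an alternative chosen after seeing the data. Without ND4L, which was low in tendons 2 and 3, an alternative also chosen after seeing the data, the log2 ratio of complex I was -4.98. No paired analysis was possible because the 4 tendons form 1 group. With 3 tendons the exact sign-flip test cannot go below 2 of 8 sign patterns. Depth limits COX4I2 and NDUFAF2 most, with as few as 12 and 31 estimated counts in a tendon.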
